A study of Oryctolagus cuniculus with 9 samples.

Results

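Matrix metalloproteinases (MMPs) are zinc enzymes that cut the proteins of the extracellular matrix. This account follows 10 of them through the ligamentum flavum of the rabbit, the elastic ligament that joins the laminae of neighbouring vertebrae. They are MMP1, MMP2, MMP3, MMP9, MMP11, MMP12, MMP13, MMP14, MMP16 and MMP19, taken by name from a table of 23407 gene rows, and all 10 had a row. All donors were New Zealand white rabbits, male and 70 weeks old. The Control group (3 libraries) had a sham operation. The Fused group (3 libraries) is the ligament of a level fixed with instrumentation. The ISC group (3 libraries) is the ligament of the level of intervertebral stress concentration. Per the labels' protocols the rabbits were 18 weeks old when the supraspinal muscle of a lumbar level was resected and the levels above and below it were fused. That protocol is attached to the sham samples as well, and which libraries come from 1 rabbit is not stated. By its title the series asks what long-term mechanical stress changes in the expression of genes in this ligament.

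MMPs are made as inactive proenzymes, and a propeptide has to be removed or displaced before they can cut. The interstitial collagenases, MMP1, MMP8 and MMP13, cleave the triple helix of fibrillar collagen, and the gelatinases, MMP2 and MMP9, degrade the unwound chains. MMP14, a membrane-anchored enzyme, activates the proenzyme of MMP2 with the help of the inhibitor TIMP2. In skeletal tissues MMP13 is known from hypertrophic cartilage and from osteoblasts, and MMP9 from osteoclasts and neutrophils.

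Values are scaled read counts, that is, reads of a gene divided by a size factor of the library. Reads in genes numbered 1233155 to 1869209 per library, and 3 reads made a scaled count of 2.40 to 3.58. Haemoglobin genes took at most 0.269% of the reads in Control, between 1.58% and 6.45% in Fused and between 0.429% and 5.03% in ISC, with Fused replicates 2 and 3 and ISC replicate 2 above 5%. The markers of ligament fibroblasts were read in every library, with summed scaled counts between 8020.1 and 110623.2. TNMD, a marker of tendon and ligament cells, was an exception, with 1 read over the Control libraries, none in Fused and 12 in ISC. In these tissue samples fewer cells of a type and less RNA per cell cannot be told apart.

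The MMP pool of the sham ligament was mostly MMP2. Levels were set per kilobase of the deposited gene length, so a comparison between genes depends on how complete the annotated lengths are. On this scale MMP2 stood at 425.5 ± 171 scaled reads per kilobase (SD, n = 3) in Control. MMP14 followed at 69.7 ± 21.8 and MMP11 at 17.9 ± 6.17, and the ranges of the Control libraries of MMP2 and MMP14, and of MMP14 and MMP11, did not overlap. MMP9 (8.84 ± 14.1), MMP13 (7.86 ± 8.99), MMP12 (5.12 ± 5.22), MMP19 (2.68 ± 1.68) and MMP16 (2.67 ± 1.08) came next, each overlapping its neighbour in this order. MMP3 and MMP1 were last at 0.323 ± 0.560 and 0.273 ± 0.473 per kilobase. In ISC the order began with MMP2 (452 ± 287), MMP14 (76.5 ± 21.8) and MMP13 (61.9 ± 70.9), and the ranges of MMP14 and MMP13 overlapped. In Fused MMP13 came first at 369.9 ± 393, followed by MMP2 at 159 ± 65.7 and MMP9 at 95.5 ± 142, with the ranges of these neighbours overlapping.

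As a share of the summed level per kilobase of the 10 genes, MMP2 made up 81.4%, 82.8% and 69.4% of the pool in the Control libraries. Its share was 72.5%, 65.3% and 72.1% in ISC replicates 1 to 3 and 56.2%, 11.8% and 24.6% in Fused replicates 1 to 3. MMP13 made up 0.223%, 0.618% and 3.91% in Control, 1.17%, 7.82% and 13.1% in ISC and 16.6%, 63.0% and 58.1% in Fused, in the same order. The share of MMP2 was lower, and that of MMP13 higher, in every Fused library than in every library of the other groups. MMP13 exceeded MMP2 per kilobase in Fused replicate 2, by 5.36-fold, and in Fused replicate 3, by 2.36-fold, and in no other library. MMP2 and MMP13 together made up between 72.8% and 85.1% of the pool in every library. These shares are descriptions and were given no test. They cover the 10 members only, without MMP8, which stood at 81.9 ± 57.2 per kilobase in Fused (SD, n = 3).

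**Figure D1:**
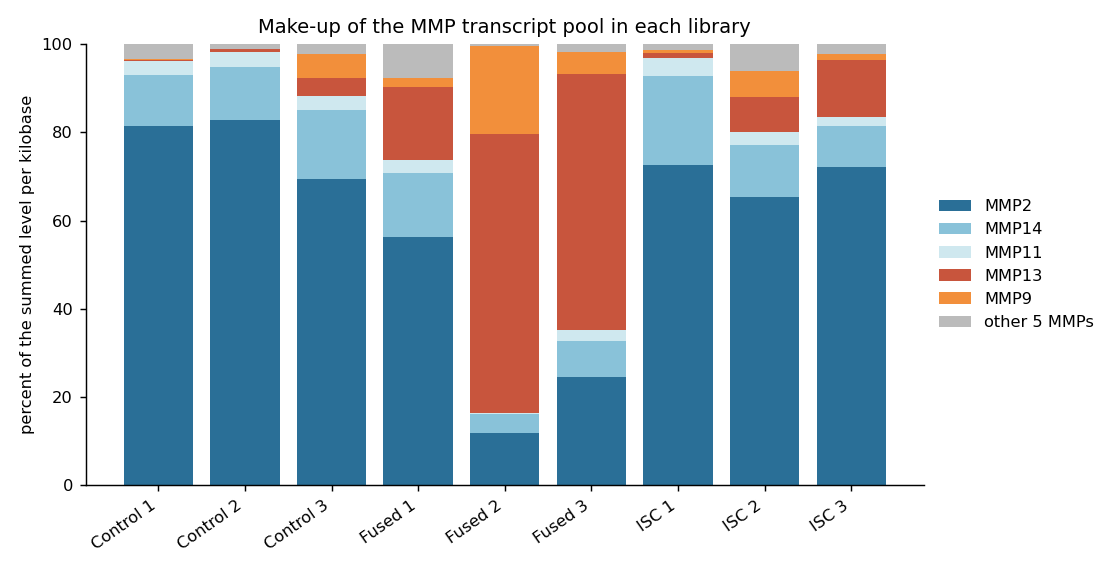
Percent of the summed level per kilobase of the 10 MMP genes (y axis) that each of MMP2, MMP14, MMP11, MMP13 and MMP9, and the other 5 together, made up in each of the 9 libraries (x axis). MMP2 holds at least 65.3% in the Control and ISC libraries, while MMP13 holds 63.0% and 58.1% in Fused replicates 2 and 3.

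The fixed level was set against the sham ligament first. A gene was called at an adjusted p under 0.05, from limma on log2(scaled count + 1), with Benjamini-Hochberg adjustment over all genes tested. Of the 9 members tested, 1 rose (MMP13), 1 fell (MMP2) and 7 did not pass. Over all 14686 genes tested 6.58% were called, 3.98% higher and 2.6% lower. With edgeR 1 member was called, MMP13, and 6.78% of all genes. With DESeq2 2 members were called, MMP13 and MMP2, and 9.93% of the genes given an adjusted p. The median log2 change of the 9 was 0.07, beside 0.02 over all genes.

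MMP13 (collagenase-3, with 10 exons on chromosome 1, 113615791 to 113627813 of oryCun2, plus strand) cleaves type II collagen as well as type I. Control replicates 1 to 3 had scaled counts of 2.83, 14.4 and 55.7. Fused replicates 1 to 3 had 208, 2518.5 and 705. The lowest Fused library lay above the highest Control library, and within each group the libraries differed widely, with the highest Fused library 12.1 times the lowest and the highest Control library 19.7 times the lowest. The log2 change was 5.59 (SE 1.05, 95% interval 3.20 to 7.98), with a limma adjusted p of 0.0221. It was also called with edgeR (adjusted p = 0.0293) and DESeq2 (adjusted p = 0.000716), and the authors' deposited table gives it a q-value of 0.000275. Without Fused replicate 2 the log2 change was 4.68 (adjusted p = 0.0758) and without Control replicate 1 it was 4.61 (adjusted p = 0.0697). The call was also lost without Control replicate 2 (5.61, adjusted p = 0.110) and without Fused replicate 3 (5.60, adjusted p = 0.0873). Over all genes limma called 0 without Control replicate 1, Control replicate 2 or Fused replicate 3. It called 34 without Fused replicate 2, against 966 of 14686 with all libraries. The call of MMP13 was kept without Control replicate 3 (6.55, adjusted p = 0.0383) and without Fused replicate 1 (6.48, adjusted p = 0.00236). With Fused replicates 2 and 3 both left out it was 3.81 (adjusted p = 0.295), where the remaining Fused library is assumed to vary as the Control libraries did.

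Genes of bone cells and blood cells stood beside MMP13. Of 7 tested markers of osteoblasts and osteocytes 2 rose in Fused by limma, 3 by edgeR and 5 by DESeq2. The summed scaled count of the 8 marker rows was 74.5 to 157 in Control and 181, 1255.2 and 672 in Fused replicates 1 to 3. BGLAP, osteocalcin, was at 0 in every library. The markers called by limma were RUNX2 and DMP1. DMP1, a matrix protein of osteocytes, was at 0, 1.60 and 0 in the Control libraries against 32.5, 171 and 106 in the Fused libraries (limma adjusted p = 0.0142). IBSP, bone sialoprotein, did not pass (adjusted p = 0.306), with 11.3, 37.5 and 82.6 against 32.5, 709 and 98.4. ALPL, the alkaline phosphatase of mineralizing cells, did not pass either (adjusted p = 0.0651), with 1.89, 4.79 and 8.70 against 10.45, 119 and 65.6. With edgeR ALPL was called too, and DESeq2 also called SOST and SP7, all higher. DMP1, IBSP and ALPL were highest in Fused replicate 2, the library with the highest MMP13, and IBSP overlapped between the groups. SOST, another marker of the list, was highest in Fused replicate 3, at 3.48, 20.1 and 247 in Fused replicates 1 to 3. All 9 tested erythroid markers and all 7 tested neutrophil markers rose as well. Of 9 tested chondrocyte markers limma called none. There edgeR called 1 higher (COL9A1) and 1 lower (SOX9), and DESeq2 called 4 higher and 2 lower. Their summed scaled count was 387 to 1344.3 in Control and 402, 1540.8 and 126 in Fused replicates 1 to 3, highest in replicate 2. The part of these cell types in the MMP13 values was not tested.

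MMP2 (gelatinase A, 13 exons on chromosome 5, 11717915 to 11743377, plus strand) is a product of fibroblasts in most connective tissues. Its scaled counts were 895, 1669 and 855 in the 3 Control libraries and 609.7, 407 and 259 in Fused replicates 1 to 3. The groups did not overlap, and the highest Fused library was the one with the fewest haemoglobin reads. The log2 change was -1.43 (SE 0.357, 95% interval -2.25 to -0.62), so that Control was 2.70-fold higher on this scale. The limma adjusted p of 0.04995 lay just under the threshold. It was over the threshold without each of Control replicates 1, 2 and 3, Fused replicate 2 and Fused replicate 3 (adjusted p between 0.0921 and 0.187) and under it without Fused replicate 1 (-1.74, adjusted p = 0.00769). Without Fused replicates 2 and 3 the log2 change was -0.83 (adjusted p = 0.434). The other tools split, with edgeR at an adjusted p of 0.0559 and DESeq2 at 0.00421, and the authors' deposited table gives a q-value of 0.105. Of 9 tested markers of ligament fibroblasts 3 fell and none rose. Their summed scaled count was 23961.4 to 42717.5 in Control and 14253.6, 41818.2 and 8020.1 in Fused replicates 1 to 3. Most of the sum in Fused replicate 2 was COL1A1 (18111) and COL1A2 (19630.7). COL3A1 was at 4885.5, 2092 and 1655.2 in Fused replicates 1 to 3, against 13154.8, 21395.1 and 9798.7 in Control. The part of the fibroblasts in the MMP2 values was not tested.

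**Figure D2:**
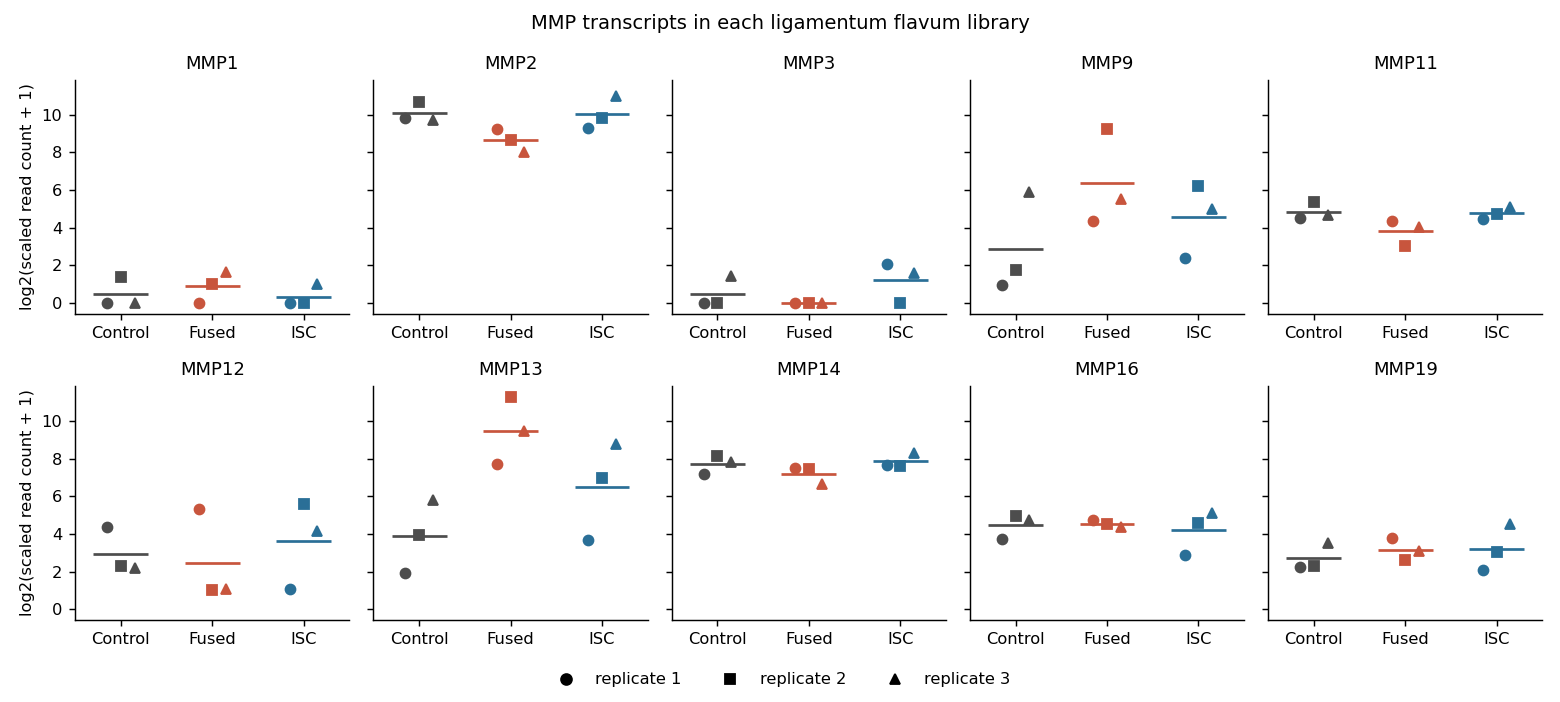
Log2 of the scaled read count plus 1 (y axis) of each of the 10 MMP genes in the 3 Control, 3 Fused and 3 ISC libraries (x axis), with 1 symbol per replicate number and a line at the mean of the group. The 3 Fused libraries lie above the 3 Control libraries for MMP13 and below them for MMP2 and MMP11, while MMP1 and MMP3 stay near 0 in all groups.

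Of the 7 members that did not pass, MMP9 and MMP11 had an unadjusted p under 0.05. That made 4 of the 9 with MMP13 and MMP2, where 22.8% of all genes had one. MMP9 (gelatinase B, 15 exons on scaffold Un0027, 971824 to 978980, plus strand) had scaled counts of 0.943, 2.40 and 59.1 in the 3 Control libraries and 19.7, 610.5 and 44.8 in Fused replicates 1 to 3. Control replicate 3 lay above 2 of the Fused libraries, so the groups overlapped. Its log2 change was 3.51 (SE 1.47, 95% interval 0.16 to 6.85) with a limma adjusted p of 0.197, and it was 2.07 without Fused replicate 2 and 5.02 without Control replicate 3, with no call. In the authors' deposited table the q-value of MMP9 is 0.0928, a call by their rule of q under 0.1, which takes 6.01% of the rows in Fused against Control.

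Markers of osteoclasts and of neutrophils are given beside MMP9. ACP5, the acid phosphatase of osteoclasts, had 0.943, 2.40 and 17.4 in the Control libraries against 6.97, 218 and 10.9 in the Fused libraries. It was highest in Fused replicate 2 and, among the Control libraries, in replicate 3, as MMP9 and the osteoclast marker TNFRSF11A were. The markers CTSK, ATP6V0D2 and NFATC1 were instead lowest in replicate 3 among the Control libraries. NFATC1 was at 95.2, 99.0 and 88.7 in Control and lower, at 68.5, 60.35 and 59.0, in Fused replicates 1 to 3. OCSTAMP and DCSTAMP, which osteoclast precursors need to fuse, were at 0 in Control and ISC and had 5 and 4 reads over the Fused libraries. CALCR, the calcitonin receptor of osteoclasts, was at 0 throughout. Of 5 tested osteoclast markers none was called in Fused against Control, and their summed scaled count was 1658.8 to 1974.8 in Control and 668 to 1656.5 in Fused, most of it CTSK. The neutrophil markers had sums of 88.6 to 266 in Control and 2134.4, 22534.4 and 12482.8 in Fused replicates 1 to 3. The part of either cell type in the MMP9 values was not tested.

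MMP11 (stromelysin-3, 8 exons on scaffold Un0546, 34359 to 42550, plus strand) is activated inside the cell by furin. Its scaled counts were 21.7, 39.9 and 24.4 in the 3 Control libraries and 19.7, 7.04 and 15.3 in Fused replicates 1 to 3. The groups did not overlap, by a gap between 19.7 and 21.7, and the log2 change was -1.04 (SE 0.425) with a limma adjusted p of 0.188. Groups did not overlap for 3 of the 9 members, and for 29.3% of all genes tested.

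MMP14 (membrane-anchored, 12 exons on chromosome 17, 43077378 to 43087282, plus strand) had scaled counts of 145, 279.5 and 222 in Control replicates 1 to 3, 181, 175 and 98.4 in Fused and 205, 191 and 314 in ISC. Control and Fused overlapped, with a log2 change of -0.51 (95% interval -1.19 to 0.18, limma adjusted p = 0.363). The coefficient of variation of MMP14 was 28.5% to 31.3% within the groups, where that of MMP13 was 106% to 115% and that of MMP9 96.4% to 159%. MMP16, another membrane-type enzyme (10 exons on chromosome 3, 103458136 to 103758339, minus strand), was at 12.3, 29.5 and 26.1 in Control, 25.5, 22.1 and 19.7 in Fused and 6.43, 22.7 and 34.1 in ISC. Its log2 change in Fused was 0.07 (95% interval -0.76 to 0.90), with a limma adjusted p of 0.939.

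MMP12, the elastase of macrophages (10 exons on chromosome 1, 113690209 to 113701889, plus strand), was erratic. It had 19.8, 3.99 and 3.48 in Control replicates 1 to 3, 39.5, 1.01 and 1.09 in Fused and 1.07, 46.5 and 17.1 in ISC. A single library or a pair held most of its reads in each group, and the groups overlapped in all comparisons. Its log2 change in Fused against Control was -0.48 in limma (adjusted p = 0.852), while the group means stood at 13.9 ± 22.2 and 9.09 ± 9.28, in the other order. The macrophage markers summed to 405, 1170.7 and 439.5 in the Fused libraries, highest in replicate 2, while MMP12 was highest in replicate 1. Their part in the MMP12 values was not tested. MMP19 (9 exons on chromosome 4, 39420867 to 39426594, minus strand), known from vascular and inflamed tissue, was at 3.77 to 10.4 in Control, 5.03 to 12.8 in Fused and 3.22 to 22.1 in ISC, with overlapping groups.

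MMP1, the interstitial collagenase that is best known from fibroblasts under inflammatory stimulation, and MMP3, stromelysin-1, were at the limit of the depth. MMP1 (chromosome 1, 113747022 to 113756573) had 6 reads in all 9 libraries together and at most 2 in any one. MMP3 (chromosome 1, 113716113 to 113724650) had 7 reads in all, with 2 in Control replicate 3, 3 in ISC replicate 1 and 2 in ISC replicate 3, and none in Fused. Every value lay at or under 3 reads, so no fold is given, and a difference between groups was not detectable at this depth. MMP1 did not reach the filter for ISC against Control, nor MMP3 for the comparisons with Fused.

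**Figure D3:**
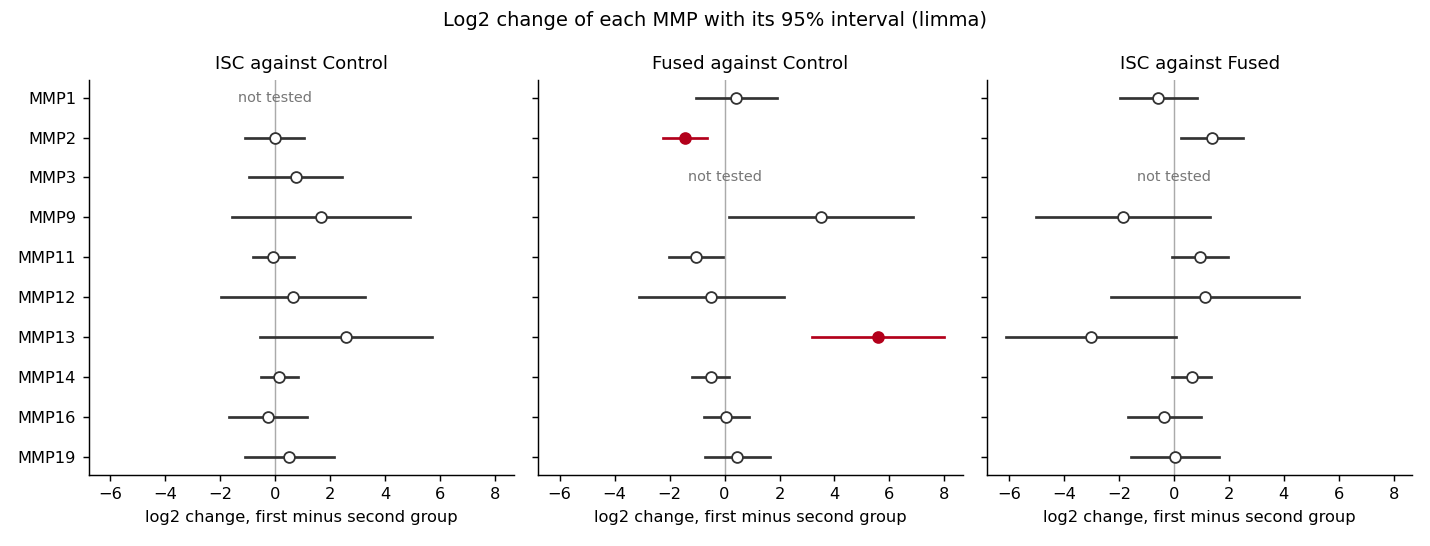
Log2 change of each MMP gene (x axis) with its 95% interval from limma in 3 comparisons, the first-named group minus the second, with filled red points for genes past the adjusted p threshold of 0.05. Past the threshold are MMP13 at 5.59 and MMP2 at -1.43 in Fused against Control and no gene in the other comparisons.

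The level under concentrated stress was then set against the sham ligament. None of the 9 members tested was called by limma, edgeR or DESeq2, and none had an unadjusted p under 0.05 in limma, where 11.5% of all 14348 genes had one. Over all genes 0.0488% were called by limma, 0.0348% by edgeR and 1.77% by DESeq2. The members' groups overlapped in every case, where 18.3% of all genes had groups that did not. The median log2 change of the members was 0.51, beside 0.0038 over all genes.

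MMP13 stood at 11.8, 127 and 435 in ISC replicates 1 to 3, against 2.83, 14.4 and 55.7 in Control. ISC replicates 2 and 3 lay above all Control libraries and ISC replicate 1 below the highest and the middle of them. The log2 change was 2.58 (SE 1.35, 95% interval -0.55 to 5.71, limma adjusted p = 0.511), and it ranged from 1.43 to 3.98 when a library was left out. The authors' deposited table gives a q-value of 0.134, which is no call, and 2.58% of its rows are called in ISC against Control. In the same libraries COL10A1, the collagen of hypertrophic cartilage, was at 79.3, 20.3 and 1095.5 in ISC replicates 1 to 3 and at most 7.99 in Control. COL10A1 was called by DESeq2 and in the authors' deposited table, and not by limma (adjusted p = 0.314) or edgeR. None of the 6 tested markers of osteoblasts and osteocytes was called by limma, edgeR or DESeq2, while the authors' deposited table calls ALPL. IBSP (limma adjusted p = 0.410) was at 49.3, 177 and 627, in the order of MMP13, and overlapped Control. ALPL and PHEX had that order too, and RUNX2, DMP1 and SP7 did not. Of 9 tested chondrocyte markers 4 rose in ISC by limma. Their summed scaled count, highest in ISC replicate 2, was 9603.1 to 15007.4 against 387 to 1344.3 in Control. The part of chondrocytes or bone cells in the MMP13 values was not tested.

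MMP2 was at 634, 914 and 2082.6 in ISC replicates 1 to 3, which spans the Control range of 855 to 1669. Its log2 change was -0.03 (95% interval -1.09 to 1.03, limma adjusted p = 0.984). MMP14 had a log2 change of 0.15 (95% interval -0.52 to 0.81) and MMP11 of -0.08 (95% interval -0.82 to 0.67). ISC replicate 3 held the highest MMP2, MMP14, MMP16 and MMP19 of all 9 libraries. MMP9 was at 4.29, 74.0 and 31.1 in ISC replicates 1 to 3, with a log2 change of 1.67 (95% interval -1.57 to 4.90). It ranged from 0.71 without Control replicate 1 to 3.18 without Control replicate 3, with no call. For MMP9 and MMP13 the intervals leave room for changes of several log2 units in ISC.

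Last, ISC was set against Fused. None of the 9 members tested was called, and 0.279% of 15404 genes were. MMP2 had an unadjusted limma p under 0.05 (adjusted p = 0.361), where 10.3% of all genes had one. Neither edgeR nor DESeq2 called a member, where they called 0.188% and 2.66% of the genes. Every ISC library lay above every Fused library for MMP2, MMP11 and MMP14, 3 of the 9, where 8.08% of all genes had ISC above Fused without overlap and 15.4% lacked overlap in either direction. The log2 change was 1.41 (SE 0.4845) for MMP2, 0.96 (SE 0.442) for MMP11 and 0.66 (SE 0.306) for MMP14. MMP13 had a log2 change of -3.01 (SE 1.325, 95% interval -6.09 to 0.07, adjusted p = 0.496), and ISC replicate 3, at 435, lay above Fused replicate 1, at 208. It ranged from -4.15 without ISC replicate 3 to -1.61 without ISC replicate 1, with no call. The comparison shares its Fused libraries with Fused against Control and its ISC libraries with ISC against Control.

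MMP13, MMP12, MMP3 and MMP1 lie side by side on chromosome 1 in a cluster of MMP genes, all on the plus strand. From the start of MMP13 the gene starts follow at 74.4 kb (MMP12), 100.3 kb (MMP3), 131.2 kb (MMP1), 159.5 kb (MMP10), 211.2 kb (LOC100339790), 230.1 kb (LOC100340040), 304 kb (MMP20) and 385.5 kb (MMP7). By gene ID these locus rows are MMP8 and MMP27 in RefSeq's mOryCun1.1 annotation, from which names alone were taken. MMP13 held 3964 reads over the 9 libraries, MMP8 407, MMP12 123, MMP27 9, MMP3 7 and MMP1 6, and MMP10, MMP20 and MMP7 held none. MMP13, MMP8 and MMP12 thus held nearly all reads of the cluster, and the libraries that were high differed between them. MMP8 was high in Fused replicates 2 and 3 and ISC replicate 2, MMP12 in Fused replicate 1 and ISC replicate 2, and MMP13 in the Fused libraries and ISC replicate 3.

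**Figure D4:**
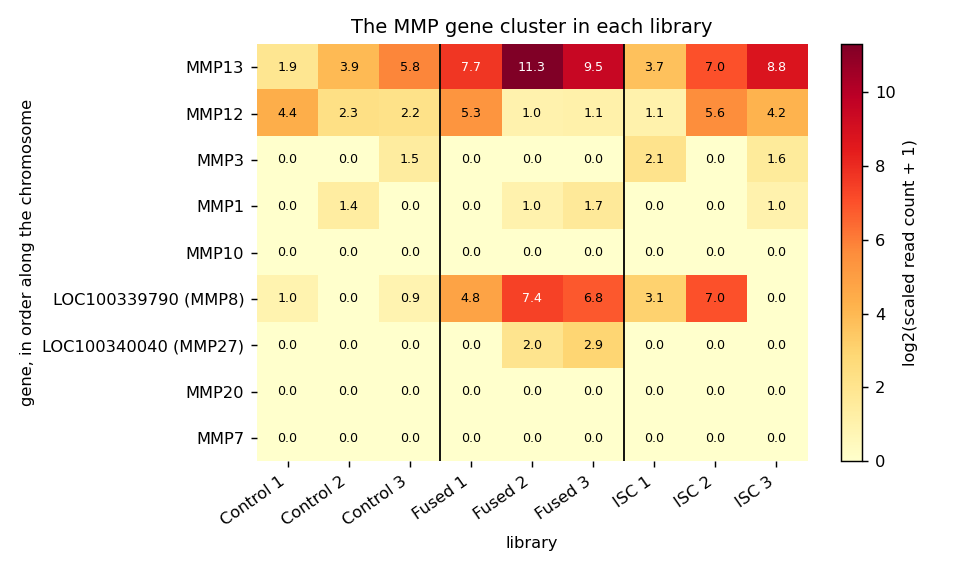
Log2 of the scaled read count plus 1 (colour and printed value) of the 9 MMP genes of the chromosome 1 cluster (rows, in order along the chromosome) in the 9 libraries (columns). MMP13, MMP12 and LOC100339790 (MMP8) carry nearly all reads, and MMP10, MMP20 and MMP7 are at 0 in every library.

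Of the other MMP genes 12 had a row, 7 were tested in Fused against Control and 1 was called there by limma, edgeR and DESeq2, higher. This was MMP8, the collagenase stored in neutrophil granules (LOC100339790, chromosome 1, 113826997 to 113840288). It had 1, 0 and 1 reads in the 3 Control libraries and 23, 168 and 102 in Fused replicates 1 to 3, scaled counts of 26.7, 169 and 112 in Fused. Over the groups the ratio was 183, with an exact 95% interval of 50.25 to 1519.3 that covers counting error only. The limma adjusted p was 0.0142. MMP8 reached the filter through the Fused libraries alone, as its Control values (0.943, 0 and 0.870) all lay under 1. Its p is thus not independent of that selection. In ISC replicates 1 to 3 MMP8 was at 7.51, 125 and 0, and it was high in the libraries with the most haemoglobin reads. It did not reach the filter for ISC against Control, where 112 reads stood against 2, a ratio of 70.1 with an exact 95% interval of 18.95 to 586 for counting error only, and 105 of the 112 came from ISC replicate 2. The row named MMP25 (scaffold Un0130, 285536 to 288365) and the locus row LOC103345668 behind it (292429 to 296467), whose gene ID has the symbol MMP25 in the RefSeq table, may split 1 gene. They are named here after their values were seen. The locus row was at 1.89, 1.60 and 3.48 in the 3 Control libraries and at 11.6, 63.4 and 20.8 in Fused (log2 change 3.01, SE 0.614, limma adjusted p = 0.0282). The row MMP25 was at 0 in Control and had 1, 5 and 4 reads in Fused replicates 1 to 3 (limma adjusted p = 0.0651). This row also reached the filter through the Fused libraries alone. MMP25 is a membrane-anchored enzyme of neutrophils. Limma, edgeR and DESeq2 called none of the other MMP genes in ISC against Control or in ISC against Fused. By limma 5 and 7 were tested, 0 and 2 of them with an unadjusted p under 0.05. Of all genes tested 11.5% and 10.3% had such a p in these comparisons. The authors' deposited table calls MMP8 in ISC against Control (q-value 0.00204). In Fused against Control the authors' deposited table calls MMP8 (q-value 9.06e-05), MMP25 (0.0163) and MMP27 (0.0672), which had 9 reads in Fused and none elsewhere.

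TIMPs are small proteins that block the active site of MMPs. TIMP2 (scaffold Un0367) had scaled counts of 3043.1, 3570.4 and 2543.4 in Control replicates 1 to 3, 1901, 1131.5 and 1013.5 in Fused and 2773.9, 2618.6 and 3477.1 in ISC. Per kilobase TIMP2 stood at 996 ± 168 in Control, 440.2 ± 157 in Fused and 965 ± 149 in ISC (SD, n = 3), above the group mean of MMP2 in each group (425.5, 159 and 452). Fused lay below Control without overlap for TIMP2 (log2 change -1.22, SE 0.308, limma adjusted p = 0.0517), which did not pass. It passed with DESeq2 (adjusted p = 0.00186), with a minimum value of 10 (limma, 0.0447) and without Fused replicate 1 (limma, 0.00682), and not with edgeR (0.0542). TIMP3 (chromosome 4), the inhibitor that binds to the matrix, fell from 685, 697 and 578 in Control to 454, 254.5 and 268 in Fused (log2 change -1.05, SE 0.2375, limma adjusted p = 0.0390). Its call was lost without any single library except Fused replicate 1 (adjusted p between 0.0881 and 0.166), and with edgeR (0.05002), and kept with DESeq2 (0.00733). TIMP1 (chromosome X) was at 124, 141 and 100 in Control, 70.8, 94.5 and 60.1 in Fused and 149, 223 and 196 in ISC. Its groups did not overlap in any pair, with limma adjusted p of 0.0941 for Fused against Control, 0.359 for ISC against Control and 0.0864 for ISC against Fused. In ISC against Fused it passed with DESeq2 (adjusted p = 0.00574), with median centring (limma, 0.0486) and in 1 limma fit of all 9 libraries (0.0232), and not with edgeR (0.0992). Of the 6 inhibitors tested by limma, 1 fell and none rose in Fused against Control, with a median log2 change of -0.55. Over all genes the median there was 0.02. There edgeR called none and DESeq2 called TIMP2 and TIMP3, lower. In ISC against Control none was called by limma, edgeR or DESeq2, and 3 had an unadjusted limma p under 0.05, beside 11.5% of all genes. In ISC against Fused limma and edgeR called none, and DESeq2 called TIMP1 and TIMP2 (0.0471), higher. There 4 inhibitors had an unadjusted limma p under 0.05, beside 10.3% of all genes. The authors' deposited table calls TIMP1 (q-value 0.00399) and TIMP3 (0.0850) in ISC against Fused, where it calls 2.25% of its rows.

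**Figure D5:**
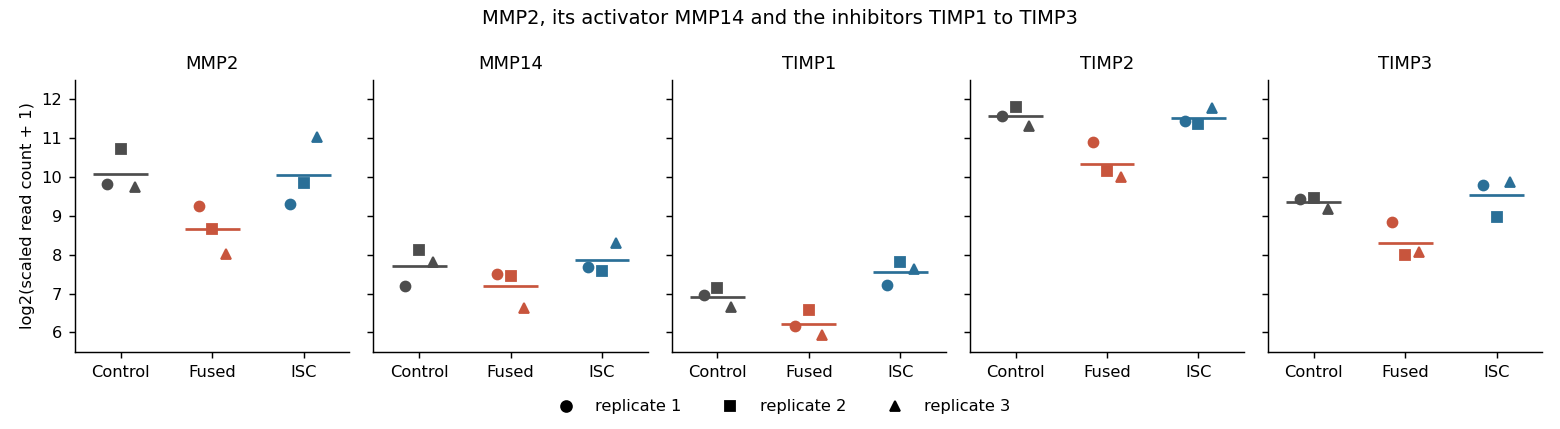
Log2 of the scaled read count plus 1 (y axis, from 5.5) of MMP2, MMP14, TIMP1, TIMP2 and TIMP3 in the 3 Control, 3 Fused and 3 ISC libraries (x axis), with 1 symbol per replicate number and a line at the mean of the group. Fused lies below Control without overlap for MMP2 and all of the TIMPs shown, and MMP14 overlaps between Fused and Control.

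Among activators of MMP proenzymes 8 of 11 rows were tested in Fused against Control and 1 was called by limma, higher. DESeq2 also called PLAT, lower. PLAUR, the receptor that holds urokinase on the cell surface, went from 2.83, 0 and 2.61 in Control to 12.8, 40.2 and 20.8 in Fused (log2 change 3.27, SE 0.653, limma adjusted p = 0.0263). It stood at 11.8, 26.3 and 23.1 in ISC (adjusted p = 0.267 against Control). FURIN, the intracellular protease that activates MMP11 and MMP14, was at 72.7 to 80.0 in Control and 69.7 to 79.8 in Fused. Limma and edgeR called none of 9 activators in ISC against Control, where 3 had an unadjusted limma p under 0.05 and both DESeq2 and the authors' deposited table called PLAUR. In ISC against Fused limma, edgeR and DESeq2 called none of 9, and 0 had an unadjusted limma p under 0.05. Of all genes 11.5% had such a p in ISC against Control and 10.3% in ISC against Fused.

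Among genes that regulate MMP transcription 11 of 14 rows were tested in Fused against Control, of which 2 rose and 1 fell by limma and edgeR. DESeq2 called JUN as well, lower. RUNX2, a transcription factor of osteoblasts that acts on the MMP13 promoter, went from 58.5, 73.5 and 53.1 in Control to 97.6, 154 and 121 in Fused (log2 change 0.99, SE 0.216, limma adjusted p = 0.0344). It was at 75.1, 57.3 and 164 in ISC replicates 1 to 3, where MMP13 was at 11.8, 127 and 435. Both were highest in ISC replicate 3, but from replicate 1 to 2 RUNX2 fell and MMP13 rose. The part of RUNX2 in the MMP13 values was not tested. IL1B, an inflammatory cytokine that induces several MMPs, went from 3.77, 0 and 0 to 13.9, 66.4 and 40.4 (log2 change 4.36, SE 0.771, adjusted p = 0.0196). In ISC it was at 3.22, 38.2 and 4.01, so that it was highest in Fused replicates 2 and 3 and ISC replicate 2. The summed neutrophil markers were highest in the same libraries, at 22534.4, 12482.8 and 16525.6, and their part in the IL1B values was not tested. ETS2, a transcription factor, fell from 252, 291 and 232 to 128, 106 and 78.7 (log2 change -1.32, SE 0.202, adjusted p = 0.0169). For each of these 3 genes, named because they were called, the Fused and Control libraries did not overlap, as for 29.3% of all genes tested. Limma, edgeR and DESeq2 called none of 11 in ISC against Control or in ISC against Fused. There 3 and 2 had an unadjusted limma p under 0.05, beside 11.5% and 10.3% of all genes. The authors' deposited table calls IL1B and JUN in ISC against Control, where their limma log2 changes were 2.48 and -1.26.

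Of 14 matrix proteins that MMPs cut or lie beside, tested in Fused against Control, 4 fell and none rose by limma and edgeR. Their median log2 change was -0.88, beside 0.02 over all genes, and DESeq2 called 5 lower and 1 higher. ELN, elastin, fell from 1394.3, 2045.9 and 1001.2 in the Control libraries to 411, 264.5 and 146.5 in the Fused libraries (log2 change -2.49, SE 0.386, limma adjusted p = 0.0169). COL5A1, a fibrillar collagen, fell by 1.66 on the log2 scale (adjusted p = 0.0169), and FN1, fibronectin, fell by 2.31 (adjusted p = 0.0222). In ISC against Control 1 of the 14 rose, COL2A1, the collagen of cartilage that MMP13 cleaves, from 18.85, 3.19 and 9.57 to 3554.5, 7737.6 and 5171.5 (log2 change 9.09, SE 0.538, adjusted p = 0.00282). DESeq2 called ACAN and FN1 there too. In ISC against Fused limma and edgeR called none of 14, and DESeq2 called 6, all higher. Of the 14, 8 had an unadjusted limma p under 0.05, beside 10.3% of all genes. All 14 had a positive limma change (median 1.59, beside -0.07 over all genes).

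The genes most like each MMP across the 9 libraries were taken among 9763 genes with a symbol and a mean of 10 or more, by Pearson's r of log2(scaled count + 1). The 9 points share their groups, libraries and depth, so r is a description. MMP13 was most like CIITA (r = 0.965), the master regulator of class II antigen presentation, and TPST2 (0.960), a protein sulfotransferase. MMP9 was most like NRROS (0.952), a protein of myeloid cells that tethers latent TGF-beta, and GGT5 (0.949). CIITA had scaled counts of 0, 1.60 and 6.09 in the Control libraries, 10.45, 45.3 and 19.7 in Fused and 3.22, 11.9 and 10.03 in ISC. MMP2 was most like TPPP3 (0.967) and HYAL1 (0.967), a hyaluronidase, and MMP14 most like OXCT1 (0.963) and EMC1 (0.963). MMP11 was most like SMURF2 (0.969) and PPEF1 (0.961), and MMP16 most like IGF1 (0.945), a growth factor, and ITGB1BP1 (0.935). The best match of MMP12 was weaker, with USP28 (0.889) and TSEN15 (0.861).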

How the data were processed

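The series' design text names TopHat, the build oryCun2 and Cufflinks, and the submitters' processing notes name TopHat. What counted the reads, with which annotation and strand setting, is not stated there, and genes that overlap or are near-identical are uncertain for that reason. The authors deposited 3 tables with the same normalized signal of 9 libraries, read counts divided by a TMM size factor, as the tables are named. The authors' deposited p-values and q-values are quoted by name. Locus rows received symbols by gene ID from RefSeq (764 of 8020). A row without a gene name (1) was left out.

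Pairs of groups were compared with limma 3.58.1 in R 4.3.3, with a mean-variance trend, on log2(value + 1). A gene entered if 3 or more libraries reached a value of 1. It was checked on simulated counts. Fold changes on this scale understate low genes. Calls are two-sided. edgeR 4.0.16 and DESeq2 1.42.0 ran on reads recovered by dividing by each library's smallest value (100% whole within 1e-06). In Fused replicate 2 and ISC replicate 3 a read is worth so nearly 1 (1.0058 and 1.0032) that whole values there could also be rounded ones. Named genes are the 10 members, MMP8, TIMP1 to TIMP3, up to 3 called genes per list and comparison, and the 2 most alike genes per member with a mean of 10 or more. Members and lists were chosen with earlier results of these data known. Nothing states that replicates are separate animals, so the p-values reflect differences among these samples only, which may be technical.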

Additional observations from a re-analysis of the deposited data

How the results depend on the processing

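No member was called in ISC against Control or in ISC against Fused under any of the 17 and 18 alternatives. In Fused against Control the count of 2 called members stayed at 2 under 4 of 18 alternatives. It was 1, MMP13, with quantile normalization, a minimum value of 10, pseudocounts of 0.1 and 5, the replicate block and edgeR. It was 0 without the trend and in 1 fit of all 9 libraries, where 50 and 25 of all genes were called, against 966 in the main fit. When 1 library was left out it was 0 to 2, where 0 to 2050 of all genes were called. The remaining alternative, without Fused replicates 2 and 3, left 1 Fused library. Where MMP2 lost its call its log2 change was -1.28 to -1.45 with all libraries, -1.12 to -1.61 with 1 left out and -0.83 without Fused replicates 2 and 3. The labels do not say whether libraries of the same replicate number are paired. Their deviations from the group means correlated at -0.0571 to 0.0322 in Fused against Control and -0.0472 to 0.148 in ISC against Control. In ISC against Fused the correlations were 0.314, 0.312 and -0.100 for replicate numbers 1 to 3. With 3 libraries per group such values cannot exclude pairing. In these comparisons 2, 2 and 4 of 6 libraries correlated best with their own number. With the replicate block PLAUR had an adjusted p of 0.0587.

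Of 459 alternative values of the members 29 changed sign, all of changes that were not called. In ISC against Control MMP2 became 0.0632 with edgeR and 0.086 with DESeq2. When 1 library was left out the values ran from -0.51 to 0.35 for MMP2, -0.25 to 0.18 for MMP11, -0.34 to 1.92 for MMP12, -0.11 to 0.36 for MMP14, -0.74 to 0.38 for MMP16, -0.14 to 1.08 for MMP19 and -0.168 to 0.0767 for TIMP2. In Fused against Control MMP12 became 0.57 with edgeR, 0.61 with DESeq2 and 2.39 without Fused replicates 2 and 3, and ran from -1.92 to 0.25 with 1 library left out. MMP16 became -0.038 with median centring, -0.0831 with quantile normalization, -0.0471 with edgeR and -0.0173 with DESeq2, and ran from -0.30 to 0.30. In ISC against Fused, leaving out Fused replicates 2 and 3 and ISC replicate 2 gave -2.73 for MMP12 and -0.48 for MMP19. With 1 library left out MMP12 ran from 0.143 to 2.56, MMP16 from -0.814 to 0.306 and MMP19 from -0.611 to 0.615. The cause was not tested. MMP8 could not be tested without a Fused library, since too few values of 1 or more were left, and its adjusted p was 0.0524 and 0.0912 without Control replicates 1 and 2. PLAUR, IL1B, ETS2, RUNX2, ELN, COL5A1, FN1 and LOC103345668 each lost their call in Fused against Control when any 1 of replicates 1 and 2 of Control, or 2 and 3 of Fused, was absent (adjusted p between 0.0524 and 0.131), with directions kept. PLAUR, IL1B, RUNX2, FN1 and LOC103345668 did so without Control replicate 3 too (0.0548 to 0.114). Over all genes 0 were called without Control replicate 1, Control replicate 2 or Fused replicate 3. Without Fused replicate 2 the count was 34, and without Control replicate 3 it was 337. Depth limits MMP1 and MMP3.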
